A study of Mus musculus with 6 samples.

Results

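The glucocorticoid receptor gene Nr3c1 and 8 genes linked to glucocorticoid signaling (Fkbp5, Tsc22d3, Sgk1, Hsd11b1, Zbtb16, Tat, Cdkn1c and Lcn2) were examined in AML12 cells, an immortal mouse hepatocyte line derived from a mouse transgenic for human TGF-alpha. Members were rows whose gene symbol equaled a listed name, and 8 of the 9 had a row among the 25330 genes of the tables. Cdkn1c was not analysed here. The series had 6 mRNA libraries of wild-type cells. In the Control group, 3 libraries came from cells kept in normoxia at 21% oxygen. In the hypoxia-reoxygenation (H/R) group, 3 libraries came from cells moved into medium without serum and glucose, held at 1% oxygen for 6 h, and returned to normal oxygen for 2 h. Before the experiment all cells were grown with 10% serum, insulin, transferrin, selenium and 40 ng/ml dexamethasone, a synthetic glucocorticoid. Whether the replacement medium of the H/R cells held dexamethasone, insulin, transferrin or selenium is not given in the sources used here. Oxygen, serum, glucose and any loss of these additions changed together with the medium, so their effects cannot be told apart.

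The glucocorticoid receptor waits in the cytoplasm in a complex with HSP90 and its cochaperones. When a steroid binds, the receptor enters the nucleus, where it binds DNA at glucocorticoid response elements and activates genes, or restrains inflammatory genes through other transcription factors. In liver this pathway is known for driving gluconeogenesis and amino acid breakdown, and genes such as Fkbp5 and Tsc22d3 are widely read as reporters of receptor activity.

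The response element was searched in exact letters only, as a pair of half-sites, AGAACA and its reverse complement TGTTCT, separated by 3 bases (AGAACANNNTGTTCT). No mismatch was allowed, so elements with inexact half-sites were not counted. Promoter windows of RefSeq genes on GRCm38.p6, each holding 250 bases before and 50 after a start site, matched 6 of the 9 members (Fkbp5, Tsc22d3, Sgk1, Hsd11b1, Tat and Lcn2) with 13 windows in all. Nr3c1, Zbtb16 and Cdkn1c were not searched. The motif was searched on both strands. A half-site was found in 19% of all 32851 windows and in 4 of the 13 windows of members, of which 3 belonged to Sgk1 and 1 to Tsc22d3. The full 15-base element was found in 3 windows of the whole set, 0.00913% of them, and 1 of these was a window of Sgk1. The 250 bases before that Sgk1 start (chr10:21993640-21993889, plus strand) are shown because they hold the full element, which begins 189 bases before the start. Capitals mark the element and a further half-site:
Sgk1 start with the full element: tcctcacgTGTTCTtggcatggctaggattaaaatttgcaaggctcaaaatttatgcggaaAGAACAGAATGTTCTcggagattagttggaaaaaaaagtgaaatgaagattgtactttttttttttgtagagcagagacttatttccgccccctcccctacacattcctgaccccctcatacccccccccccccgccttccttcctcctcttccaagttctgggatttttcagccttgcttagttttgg
The other half-sites are shown in stretches of 30 bases, with the half-site in capitals, because they are the only other matches among the members. They lie 195 and 13 bases before other Sgk1 starts (chr10:21881977-21882006 and chr10:21992198-21992227, plus strand) and 185 bases before a Tsc22d3 start (chrX:140600690-140600719, minus strand):
Sgk1, first other start: aagggaatccgtTGTTCTgtgttttctgtg
Sgk1, later start: aaagtgggactcAGAACAgaaaggcaatag
Tsc22d3: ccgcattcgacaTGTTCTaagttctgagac
The windows of Fkbp5, Lcn2, Hsd11b1 and Tat held neither form in these exact letters, and whether they hold inexact elements was not tested. These matches describe the letters of the windows, not binding, and the counts are per gene and do not tell the starts of Sgk1 apart.

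Total counts were between 20438746 and 21854790 per library. Counts were scaled by edgeR's TMM method, and a count of a library after this scaling is called a normalized count below. Of the hepatocyte markers, Krt8, Krt18 and Hnf4a were abundant in all libraries, while Cyp2e1 and Serpina1a had a normalized count of at most 1.08 outside Control replicate 1. The bile duct markers Krt19 and Krt7 were abundant too. The 6 macrophage and blood markers summed to between 0.961 and 1.24 CPM (counts scaled by library size) in Control and between 5.58 and 6.62 CPM in H/R, with Cd68 holding most of it, while Adgre1 and Clec4f were at 0 outside Control replicate 1. The 5 endothelial markers summed to between 0.141 and 0.595 CPM over all libraries, with Pecam1 at 0 outside Control replicate 1 and Cdh5 at 1.08 to 3.23 normalized counts in every library. Control replicate 1 stood apart by liver transcripts, with normalized counts of 513 for Alb, 57.8 for Serpina1a, 42.6 for Cyp2e1, 26.5 for Pck1 and 17.0 for Cps1. Alb had 129 and 197 in the other Control libraries. Over all genes compared, the chi-square per degree of freedom was 15.5 and 16.2 between Control replicate 1 and the other Control libraries. It was 5.6 between those others and 2.19 to 3.35 within H/R. What part these differences had in the results was not tested, and member values without Control replicate 1 are given where they matter. The labels do not say that libraries came from separate cultures, so p-values measure the spread between these libraries, which may be technical.

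Of the 8 members with a row, 6 had enough counts to be tested, and 2 of these rose, 1 fell and 3 did not pass the test (adjusted p under 0.05 in edgeR's quasi-likelihood test, adjusted by the Benjamini-Hochberg method over 14020 genes). Nr3c1 and Lcn2 rose, and Sgk1 fell slightly. Across all tested genes 31% rose and 31.8% fell, so the share of members that passed was no larger than the share of all genes. Both rises also reached 2-fold, against 4.25% of all tested genes called higher at that size. None of the 6 members fell by 2-fold, against 4.27% of all genes. The median log2 fold change of the 6 tested members was 0.11, beside -0.014 over all tested genes. Leaving out Control replicate 1 left 2 members higher and 1 lower.

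**Figure D1:**
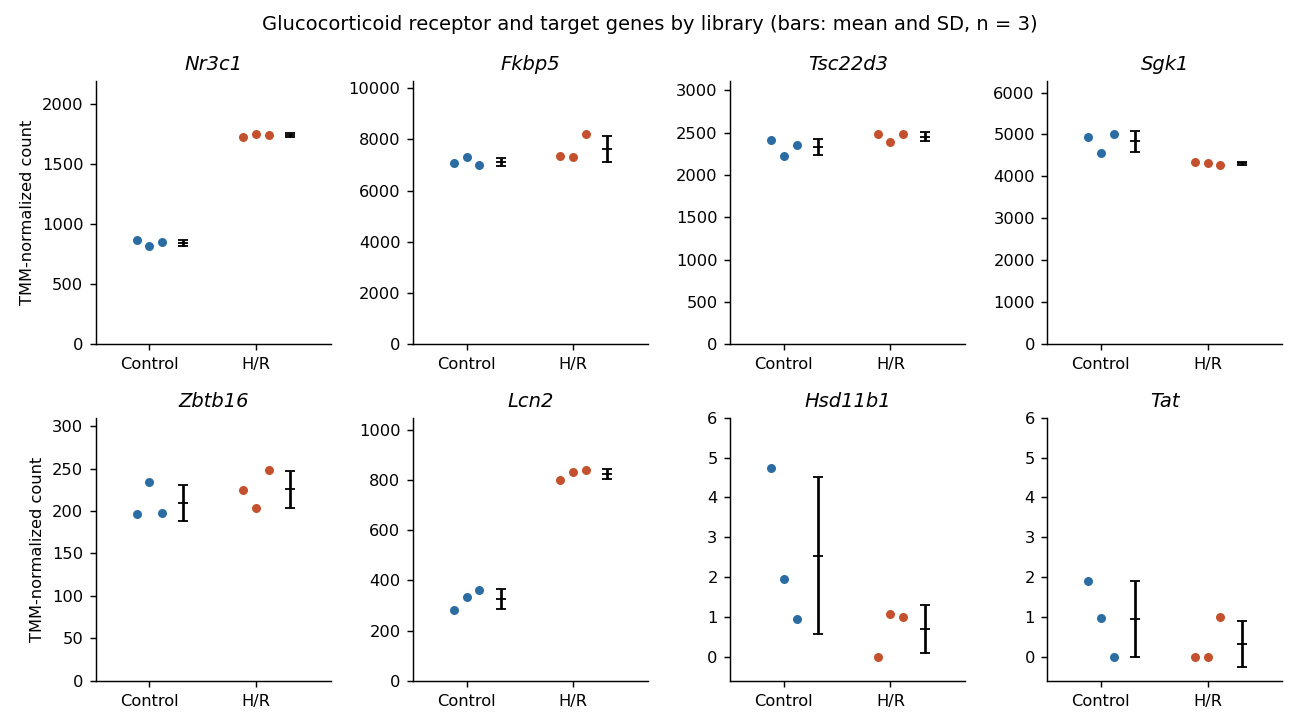
TMM-normalized count (vertical axis, 0 included) of each of the 8 members in the 3 Control (blue) and 3 H/R (orange) libraries, with the mean and SD beside the points. The groups are widely separated for Nr3c1 and Lcn2, lie close together for Fkbp5, Tsc22d3, Sgk1 and Zbtb16, and sit at 5 counts or fewer for Hsd11b1 and Tat.

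Nr3c1 encodes the receptor itself. It lies on the minus strand of GRCm38 (chr18:39410545-39491301) and shares no exon bases with another gene in the tables. Its normalized counts were 865, 815 and 853 in the Control libraries and 1725, 1755 and 1744 in the H/R libraries. Every H/R library lay far above every Control library, and the libraries within each group were close to each other. The mean went from 845 ± 26.1 (SD, n = 3) to 1741 ± 14.8 (SD, n = 3). The fitted fold change was 2.06 with a 95% interval from 1.92 to 2.21, or 1.04 on the log2 scale (standard error 0.0501, adjusted p = 5.13e-19, edgeR's quasi-likelihood test). The interval includes values under 2-fold, and the 2-fold call was lost when libraries were scaled by their totals alone, with a log2 fold change of 0.94. The rise itself stayed past the test under all 15 alternatives, with log2 fold changes from 0.83 to 1.06. Of the 14020 tested genes, 552 had a larger log2 fold change. In a bulk measurement, more RNA of a gene per cell and more cells that express it cannot be told apart.

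Over the 6 libraries, the genes whose log2 CPM tracked Nr3c1 most closely were Tsku, Pip5k1a and Mthfd1l, each with a Pearson r of 0.9998 or more. Their log2 fold changes were 0.61 for Tsku, 1.32 for Pip5k1a and 0.83 for Mthfd1l. Such likeness was frequent, as 2243 of 10178 genes had an r over 0.95, and all points share the same contrast between 2 groups, so no p is given.

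Fkbp5 encodes FKBP51, an HSP90 cochaperone that lowers the receptor's affinity for steroid and is itself induced by the receptor. The gene (chr17:28399095-28517524, minus strand) had normalized counts of 7061, 7291 and 6991 in Control and 7341, 7307 and 8219 in H/R. The H/R libraries lay just above the Control libraries, with only 1 of them, replicate 3, clearly higher. The means were 7114 ± 157 and 7622 ± 517 (SD, n = 3 each). The fitted change was 7.16% upward with a 95% interval from 0.518% to 14.2%, which did not pass the test (adjusted p = 0.0551, edgeR's quasi-likelihood test). Its direction depended on the scaling, with a log2 fold change of 0.10 after TMM and -0.0045 with library totals. The call depended on single libraries. Without H/R replicate 3 the adjusted p was 0.429, while without Control replicate 2, H/R replicate 1 or H/R replicate 2 it was 0.0291, 0.0425 and 0.0470 with a log2 fold change of at most 0.13, and with a replicate block it was 0.0496 (edgeR's quasi-likelihood test).

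Tsc22d3 encodes GILZ, a leucine zipper protein that mediates anti-inflammatory actions of glucocorticoids. The gene (chrX:140539528-140600659, minus strand) had normalized counts of 2416, 2222 and 2355 in Control and 2485, 2392 and 2489 in H/R. The groups overlapped, since Control replicate 1 lay above H/R replicate 2. The mean was 2331 ± 99.5 (SD, n = 3) in Control and 2455 ± 54.9 (SD, n = 3) in H/R. The fitted change was 5.34% upward with an interval from -1.13% to 12.2% (adjusted p = 0.148, edgeR's quasi-likelihood test). With library totals the sign turned, to -0.030 on the log2 scale.

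Sgk1 encodes a kinase of ion transport and cell survival that is induced within hours by glucocorticoids, and also by osmotic and other stresses. The gene (chr10:21882184-21999903, plus strand) had normalized counts of 4944, 4547 and 5019 in Control and 4338, 4331 and 4270 in H/R. All H/R libraries lay below all Control libraries, and the H/R libraries were closer to each other than the Control libraries were. The mean fell from 4836 ± 254 to 4313 ± 37.5 (SD, n = 3 each). The fitted change was -10.8% with a 95% interval from -16.1% to -5.28%, or -0.17 on the log2 scale (standard error 0.0428, adjusted p = 0.00112, edgeR's quasi-likelihood test). The fall stayed past the test under all 15 alternatives, with log2 fold changes from -0.27 to -0.14.

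Zbtb16 encodes PLZF, a zinc finger transcription factor that glucocorticoids induce in several cell types. The gene (chr9:48654297-48836222, minus strand) had normalized counts of 196, 234 and 198 in Control and 225, 204 and 248 in H/R. The groups overlapped widely. The mean was 209 ± 21.5 (SD, n = 3) in Control and 226 ± 22.0 (SD, n = 3) in H/R. The fitted change was 8.01% upward with an interval from -6.63% to 24.9% (adjusted p = 0.359, edgeR's quasi-likelihood test). The lower count of this gene made its interval wider than those of Fkbp5, Tsc22d3 and Sgk1.

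Lcn2 encodes lipocalin 2, a secreted acute-phase protein that binds bacterial siderophores and responds to inflammatory cytokines as well as to glucocorticoids. The gene (chr2:32384633-32388252, minus strand) had normalized counts of 282, 336 and 362 in Control and 800, 834 and 838 in H/R. Every H/R library was above every Control library, and Control replicate 1 was the lowest of all. The mean rose from 326 ± 40.4 to 824 ± 20.8 (SD, n = 3 each). The fitted fold change was 2.52 with a 95% interval from 2.28 to 2.80 (log2 1.34, standard error 0.0728, adjusted p = 2.70e-17, edgeR's quasi-likelihood test). Leaving out Control replicate 1 gave 1.24 on the log2 scale. Under all 15 alternatives Lcn2 stayed past the test and at 2-fold or more, with log2 fold changes from 1.12 to 1.42.

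**Figure D2:**
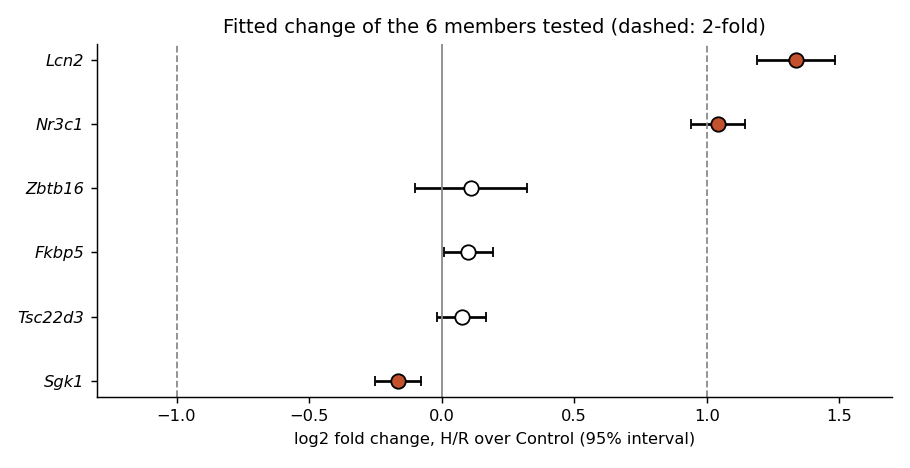
Fitted log2 fold change of H/R over Control (horizontal axis) with its 95% interval for the 6 members tested, filled where the adjusted p was under 0.05. Lcn2 and Nr3c1 lie at 1.34 and 1.04 near or beyond the dashed 2-fold line, Sgk1 lies below 0, and Fkbp5, Tsc22d3 and Zbtb16 are close to 0 and open.

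The members that encode liver enzymes, Hsd11b1 and Tat, were close to 0 in all libraries. Hsd11b1, the enzyme that regenerates active glucocorticoid from its inactive keto form (chr1:193221634-193264075, minus strand), had raw counts of 5, 2 and 1 in Control and 0, 1 and 1 in H/R. The H/R total of 2 counts was at the floor. The ratio of H/R to Control was 0.256, but its interval from 0.0265 to 1.28 includes no change and covers counting error only. Control replicate 1 held 5 of the 8 Control counts. Without that library 3 counts in Control stood against 2 in H/R, so both groups were at the floor and no ratio is given. Tat, tyrosine aminotransferase, a classic glucocorticoid-induced enzyme of hepatocytes (chr8:109990437-109999803, plus strand), had raw counts of 2, 1 and 0 in Control and 0, 0 and 1 in H/R. Tat was at or under 3 counts in total in either group, so no fold is given. A difference in Tat or Hsd11b1 was not detectable at this depth.

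Levels of different genes were compared as RPKM, the reads of a gene scaled by its length and by the library total. In Control the order was Fkbp5 at 54.7 ± 1.12, Sgk1 at 48.3 ± 2.91, Tsc22d3 at 26.3 ± 1.16, Lcn2 at 6.10 ± 0.843, Nr3c1 at 5.57 ± 0.192 and Zbtb16 at 1.94 ± 0.195 (mean RPKM ± SD, n = 3 each). Lcn2 and Nr3c1 overlapped in Control, since Nr3c1 lay between 5.35 and 5.72 RPKM and Lcn2 between 5.20 and 6.87. In H/R the order was the same but these neighbours no longer overlapped, with Lcn2 at 14.3 ± 0.465 and Nr3c1 at 10.7 ± 0.153 RPKM. Among the most abundant targets, Fkbp5 and Tsc22d3 hardly moved on this scale, with 54.6 ± 4.22 and 25.8 ± 0.706 RPKM in H/R. Sgk1 was lower in H/R, at 40.1 ± 0.0319 RPKM. RPKM uses library totals without TMM factors, so changes on this scale differ from the fitted changes above. Zbtb16 was at 1.95 ± 0.205. Hsd11b1 and Tat were last in both groups, at under 0.03 RPKM on average, and their libraries overlapped.

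**Figure D3:**
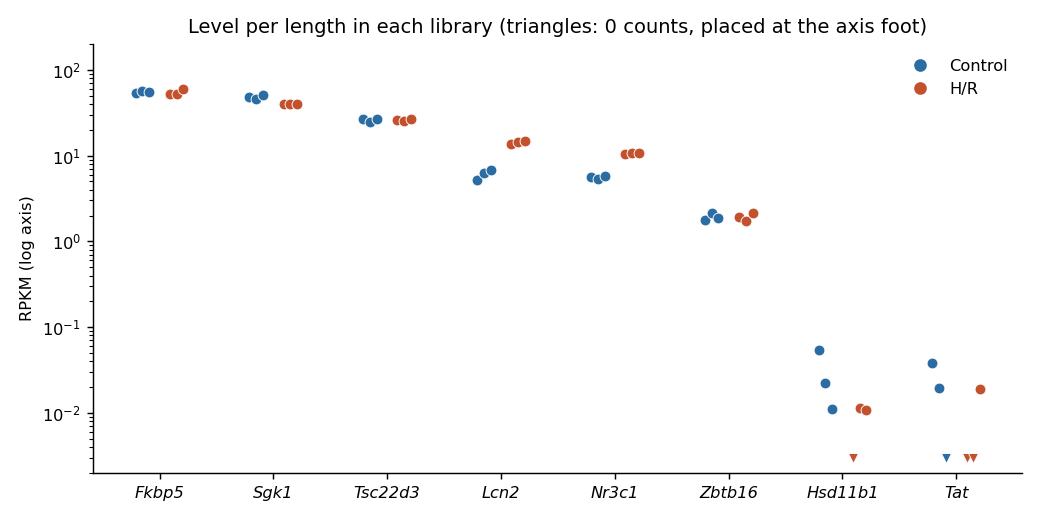
RPKM of each member in each library on a log axis, Control in blue and H/R in orange, ordered by the Control mean. Fkbp5, Sgk1 and Tsc22d3 lie between 25.0 and 59.5 RPKM, Lcn2 and Nr3c1 lie between 5.20 and 14.7 RPKM and are higher in H/R, and Hsd11b1 and Tat are at the foot of the plot, with triangles for libraries at 0 counts.

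Of the genes that receive or convert the steroid, 4 of 6 tested genes fell and 1 rose, out of 8 listed, beside 31.8% and 31% of all tested genes (median log2 fold change -0.43, beside -0.014 over all genes). Nr3c2, the mineralocorticoid receptor, which also binds glucocorticoids, fell from 259, 261 and 234 normalized counts to 171, 179 and 190 (log2 -0.48, standard error 0.0987). H6pd, the enzyme that supplies NADPH to the Hsd11b1 enzyme, fell by 0.51 on the log2 scale (standard error 0.0478). Srd5a1, a steroid 5-alpha-reductase that inactivates glucocorticoids among other steroids, fell most, from 100 to 122 normalized counts in Control to 26.9 to 32.4 in H/R (log2 -1.93, standard error 0.183). Srd5a1 shares 16.5% of its exon bases with another gene, and its counts are uncertain. Abcb1a, a membrane pump that exports steroids including dexamethasone, rose by 0.23 on the log2 scale (standard error 0.0702), a call that was lost with upper quartile scaling, library totals and both fits on log2 RPKM. It shares 10.1% of its exon bases with an opposite-strand gene. Its close relative Abcb1b, which encodes a pump of the same kind, fell by 0.37 (standard error 0.107), and reads of such similar genes may be split between them. Hsd11b2, which inactivates glucocorticoids, had too few counts to be tested, at most 5.39 normalized counts in a library.

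All 15 chaperone complex genes were tested, and 10 fell while 2 rose, beside 31.8% and 31% of all tested genes (median log2 fold change -0.19). The HSP90 genes did not pass the test after TMM scaling. Hsp90aa1, the inducible form, stood at 0.01 on the log2 scale (standard error 0.0463, adjusted p = 0.859) and Hsp90ab1, the constitutive form, at 0.09 (standard error 0.0450, adjusted p = 0.0790, both edgeR's quasi-likelihood test), with signs that turned when library totals were used. Hsp90aa1 passed as lower with library totals (log2 -0.094, adjusted p = 0.0444, edgeR's quasi-likelihood test). Hsp90ab1 passed as higher in DESeq2 (adjusted p = 0.0317), and in edgeR's quasi-likelihood test with a replicate block (adjusted p = 0.0344), without Control replicate 2 (0.0418) and without H/R replicate 3 (0.0225). Both have close processed copies in the genome, which makes their counts less certain. Fkbp4, which encodes FKBP52, the cochaperone that counters FKBP51 and aids receptor entry into the nucleus, had normalized counts of 15557, 15363 and 15075 in Control and 12922, 12955 and 12995 in H/R. It fell by 0.24 on the log2 scale (standard error 0.0431). Ptges3, the p23 cochaperone that stabilizes the steroid-binding state, fell by 0.38 (standard error 0.0433), and Ppid, the cyclophilin cochaperone, by 0.77 (standard error 0.0459). Dnaja1, a J-domain cochaperone of HSP70, fell by 0.63 (standard error 0.0415) and shares 10.8% of its exon bases with other genes. Dnajb1, another J-domain protein and a heat-shock gene, rose by 1.27 on the log2 scale (standard error 0.0450), and Cdc37, a kinase-directed HSP90 cochaperone, by 0.32 (standard error 0.0454).

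Of the 12 receptor coregulators, 6 rose, 4 fell and 2 did not pass the test, beside 31% of all tested genes that rose and 31.8% that fell. None reached 2-fold, and the median log2 fold change was 0.11. Ncoa3, a p160 coactivator, rose from 834 to 887 normalized counts in Control to 1575 to 1628 in H/R (log2 0.88, standard error 0.0509). Crebbp, the acetyltransferase CBP, rose by 0.80 (standard error 0.0608). Med14, a Mediator subunit that contacts the receptor, fell by 0.66 on the log2 scale (standard error 0.0561). Med1, another Mediator subunit, rose by 0.13 (standard error 0.0465), a call lost for example with upper quartile scaling and library totals. Ncoa2, the p160 coactivator GRIP1, was at -0.14 (standard error 0.0606, adjusted p = 0.0438, edgeR's quasi-likelihood test). The call of Ncoa2 was lost in DESeq2, without the filter on low counts, without robust dispersions, and when any of Control replicate 1, Control replicate 2, H/R replicate 2 or H/R replicate 3 was left out. The number of coregulators that fell was 1 without Control replicate 1 or H/R replicate 3, and 2 without Control replicate 2, H/R replicate 1 or H/R replicate 2 and in DESeq2.

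Among 28 other genes known to be induced by glucocorticoids, 26 were tested, and 14 rose, 4 fell and 8 did not pass (median log2 fold change 0.27), where 31% of all tested genes rose and 31.8% fell. At 2-fold, 4 were higher and 2 lower, beside 4.25% and 4.27% of all genes. These include Crispld2, higher, with 8.47 to 10.4 normalized counts in Control, and Rgs2, lower, with 9.71 to 14.0 in H/R. Part of the 2-fold counts thus rests on genes with few counts in 1 group. With at least 10 counts required in every library, 13 genes of the list rose and 3 fell. Errfi1, a feedback inhibitor of the EGF receptor, rose from 129, 112 and 120 normalized counts to 375, 429 and 381 (log2 1.71, standard error 0.0988). Rhob, a small GTPase, rose by 1.68 (standard error 0.0587), and Dusp1, the MAP kinase phosphatase through which glucocorticoids curb inflammatory signaling, by 1.41 (standard error 0.0680). The period gene Per1 rose by 0.41 (standard error 0.0486) and the transcription factor Klf9 by 0.31 (standard error 0.0555). Falls were seen in Arrdc2, an arrestin-domain gene, from 318, 296 and 388 to 150, 136 and 149 normalized counts (log2 -1.20, standard error 0.106), and in Glul, glutamine synthetase, at -0.86 (standard error 0.0926). Many of these genes also answer to growth factors, stress or nutrients, so the list is not specific to the receptor. Its counts were 14 and 4 without Control replicate 1 as well.

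**Figure D4:**
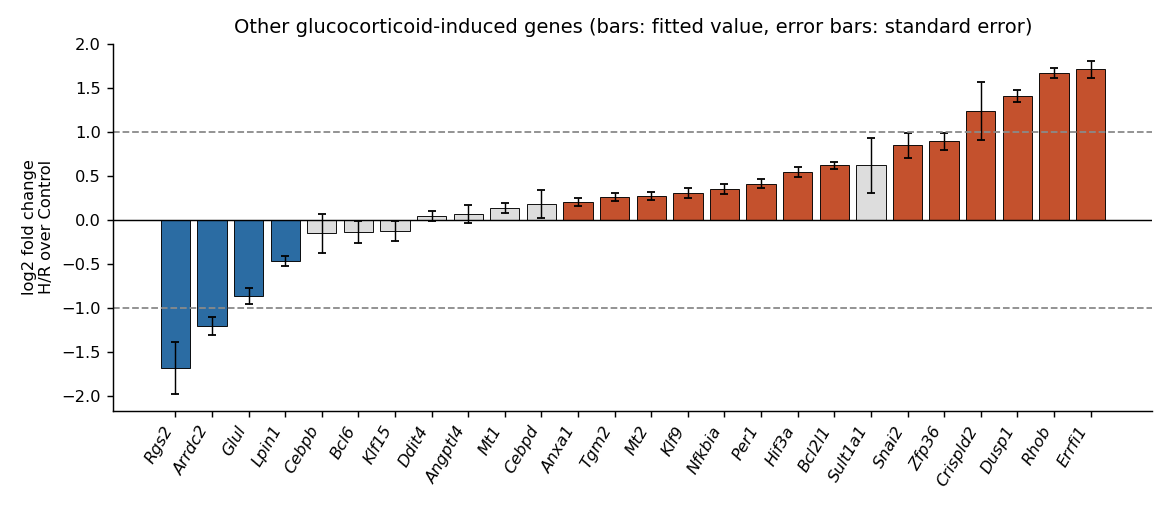
Fitted log2 fold change of H/R over Control (vertical axis) for the 26 tested genes of the list of other glucocorticoid-induced genes, with standard errors, orange for genes that rose, blue for genes that fell and grey where the adjusted p was 0.05 or more. The values run from -1.68 to 1.71, and the members of the list move in both directions.

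Of 12 genes listed as liver gluconeogenic and amino acid targets, 6 were tested, namely Ppargc1a, Got1, Gpt2, Pfkfb3, Foxo1 and Foxo3. All 6 rose, beside 31% of all tested genes (median log2 fold change 0.78). The listed enzymes Pck1, Tdo2, Sds and Cps1 had too few counts to be tested, and the tested genes include a regulator of glycolysis. The number that rose is therefore not support for a rise of gluconeogenesis. Pfkfb3, a kinase that regulates glycolysis, rose from 270, 290 and 296 normalized counts to 866, 1041 and 900 (log2 1.71, standard error 0.0727), and Ppargc1a, a coactivator of gluconeogenic genes, from 35.0, 35.1 and 32.0 to 99.1, 103 and 92.9 (log2 1.53, standard error 0.177). The genes best known as liver targets were not tested. Pck1, the rate-limiting gluconeogenic enzyme, had 26.5 normalized counts in Control replicate 1 and at most 0.999 in any other library. Igfbp1, an insulin-like growth factor binding protein, had 0.947 in Control replicate 1 and was at 0 in the other 5 libraries.

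The 18 inflammatory genes that glucocorticoids are known to repress included 10 that could be tested, and 9 of these rose, 8 of them by 2-fold or more, while none fell. Over all tested genes these shares were 31% and 4.25%. Cxcl2 and Cxcl10 had fewer than 10 normalized counts in each Control library and passed the filter through their H/R counts, so the number that rose is not support for a change of the whole list. Ptgs2, the inducible cyclooxygenase, rose from 49.2, 35.1 and 46.1 normalized counts to 349, 390 and 402 (8.71-fold). Icam1, a leukocyte adhesion molecule, rose from 19.9, 22.4 and 26.4 to 183, 220 and 229 (log2 3.20, standard error 0.164) and shares 11.7% of its exon bases with an opposite-strand gene. Cd68, a lysosomal protein listed as a macrophage marker, rose as well, from 15.1, 21.5 and 20.7 to 132, 122 and 137 normalized counts. Of the other macrophage and blood markers, Adgre1 and Clec4f were at 0 in all H/R libraries. Ptprc, Hba-a1 and Hbb-bs had at most 2.15, 5.00 and 2.00 normalized counts in an H/R library. Which cells held the Cd68 RNA was not tested.

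**Figure D5:**
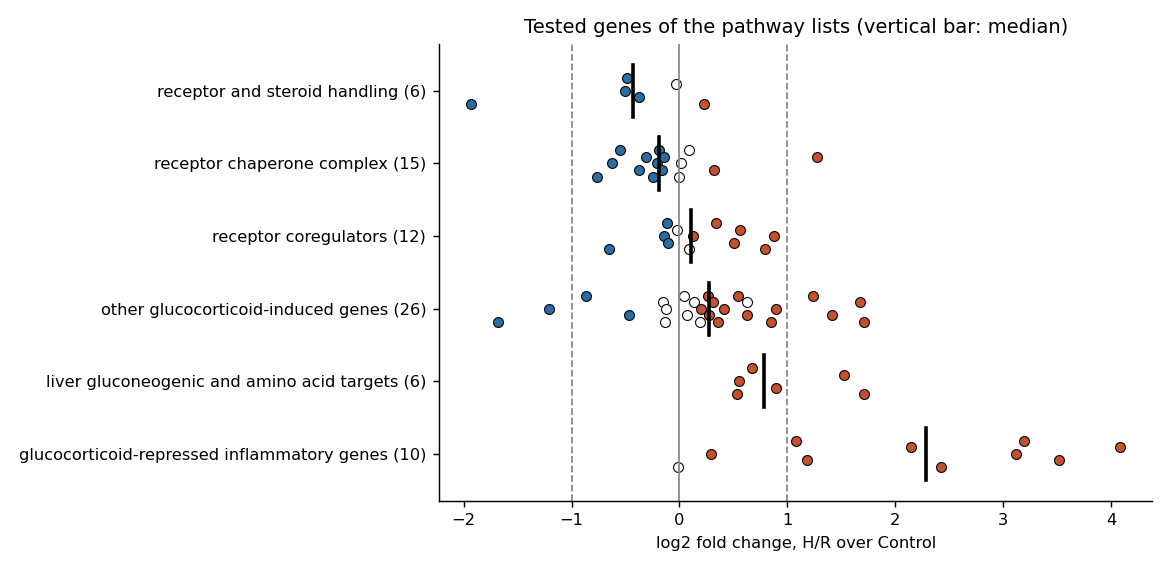
Log2 fold change of H/R over Control (horizontal axis) for each tested gene of the 6 lists around the receptor, orange for genes that rose, blue for genes that fell and open where the adjusted p was 0.05 or more, with a bar at the median and the number of tested genes in brackets. The medians run from -0.43 for receptor and steroid handling to 2.29 for the repressed inflammatory genes, whose list includes genes with few Control counts.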

How the data were processed

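AML12 RNA was sequenced as stranded mRNA libraries with paired ends on a NovaSeq instrument, and the submitters' processing notes name Trimmomatic 0.36, featureCounts, Subread 1.5.1, edgeR 3.12.1 and the mouse build GRCm38 (mm10). The annotation and the strand setting of the counting are not given in the sources used here, so genes with shared exons are uncertain. The authors deposited one table per library with whole-number counts per gene, the gene length and RPKM values, and RPKM followed from count, length and library total with a largest relative error of 1.13e-06. Coordinates are those of the tables.

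Counts were analysed with edgeR 4.0.16 in R 4.3.3 (filterByExpr, TMM factors, robust quasi-likelihood test, Benjamini-Hochberg adjustment over 14020 genes). A gene was past the test at an adjusted p under 0.05 and called when its fold change was also at least 2, the thresholds of the methods. Normalized counts are counts per effective library size, set back to the scale of an average library. With 3 libraries per group the smallest exact permutation p is 0.1. Intervals of low counts are 95% Poisson intervals, and groups at 3 counts or fewer were treated as at the floor. Replicates varied by 0.0502 beyond counting (coefficient of variation). The script was tested on simulated data.

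The members and lists were chosen with earlier results of these data known. All members were named, and from each list the 2 largest rises and falls past the test with a mean count of at least 50, beside 12 genes named whatever their values. For Nr3c1 the 3 genes with the highest Pearson correlation were named, among genes with a mean count of at least 100. Abcb1b, Cd68, Cdh5, Crispld2, Cxcl2, Cxcl10, Hba-a1, Hbb-bs, Med1, Ptprc, Rgs2 and the liver transcripts of Control replicate 1 were named after values were seen. Alternatives were DESeq2 1.42.0, upper quartile scaling, library totals, no filter, a minimum of 10 counts per library, a block on replicate number, limma 3.58.1 on log2(RPKM + 1) and log2(RPKM + 0.1), non-robust dispersions, a 1.5-fold threshold and leaving out each library. The named list genes and list counts were put through the alternatives after the data had been seen.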

Additional observations from a re-analysis of the deposited data

How the results depend on the processing

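For the 6 tested members, 80 of 90 alternative values kept the direction and the side of the threshold. Nr3c1, Sgk1, Lcn2 and Zbtb16 kept both under all 15 alternatives. Only 1 member, Lcn2, was called higher with upper quartile scaling, library totals, log2(RPKM + 1) and log2(RPKM + 0.1), since Nr3c1 then fell short of 2-fold with log2 fold changes of 0.97, 0.94, 0.83 and 0.93. The last pair of settings also scales by library totals without TMM factors, and its value with the pseudocount of 0.1 was close to that with library totals. A larger pseudocount further shrinks the change of genes at low RPKM. Fkbp5 turned to -0.0045 with library totals, -0.0069 with log2(RPKM + 1) and -0.0070 with log2(RPKM + 0.1), and Tsc22d3 to -0.030, -0.028 and -0.029. With each library left out Fkbp5 ranged from 0.045 to 0.13, and it passed the test without Control replicate 2, H/R replicate 1 or H/R replicate 2. Hsp90aa1 turned to -0.060 under upper quartile scaling, -0.094 with library totals, -0.093 with both RPKM settings, and ranged from -0.017 to 0.048 with each library left out. Hsp90ab1 turned to -0.014 with library totals and with both RPKM settings, and of the HSP90 genes Hsp90aa1 passed the test in 1 setting and Hsp90ab1 in 4. The median log2 fold change of all genes was -0.014 after TMM, -0.084 after upper quartile scaling and -0.12 for library totals, and the share of called genes that were higher was 49.9%, 41.3% and 37.0%. With log2(RPKM + 1), 222 genes were called higher and 184 lower. At 1.5-fold, 1593 were higher and 1827 lower.

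Deviations from the group means of same-numbered libraries correlated at -0.082, -0.0030 and -0.0033 over the genes compared. No pairing by replicate number was seen there, but 3 libraries per group cannot exclude it. The standard error of Glul was 0.0926 without the replicate block and 0.0475 with it, while that of Nr3c1 was 0.050 without it and 0.051 with it. For Glul it also moved in settings without a block. It was 0.0472 with no filter on low counts, 0.0663 without robust dispersions and 0.112 with library totals, so its drop cannot be read as pairing. In a fit with a replicate block, Fkbp5 passed the test at a log2 fold change of 0.098 (adjusted p = 0.0496, edgeR's quasi-likelihood test) and Nr3c1 stayed at 1.04. Depth limited Hsd11b1 and Tat, whose 8 and 3 Control counts could not show a change.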
